A study of Xenopus laevis with 5 samples.

Results

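Fibroblast growth factor (FGF) signalling was described here through 71 gene models, of 45099 in all, in whole Xenopus laevis embryos labelled as early gastrulae. The members are all copies whose symbol names an FGF ligand, an FGF receptor, a Sprouty or Spred protein, the phosphatase Dusp6, the membrane inhibitor Il17rd or an ETS factor of the Etv1, Etv4 and Etv5 group. They were chosen by name and not by their counts, and comprised 40 ligand, 10 receptor, 18 feedback inhibitor and 3 ETS models under 37 symbols. Xenopus laevis is allotetraploid, so most genes have an L and an S copy from its parental subgenomes, called homeologs, and each copy counts as a member. Of the 71 members 15 had no read in any library, and 29 passed the filter on low counts and were tested.

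Embryos of the MOV10 group had received 18 ng of a translation-blocking morpholino, a synthetic antisense oligomer, directed against the RNA helicase MOV10, and those of the control group 18 ng of a control morpholino. There were 2 MOV10 libraries, replicates 2 and 3, and 3 control libraries, replicates 1 to 3, labelled as whole embryos at stage 10.5. All came from eggs of 2 mating pairs, and the sources used here do not say which pair gave which library. Per the labels' protocols separate embryos were collected in each group.

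FGF ligands bind receptor tyrosine kinases together with heparan sulfate, and the receptors signal mainly through Ras to the kinase ERK. In the frog gastrula this pathway is known for maintaining the mesoderm around the blastopore and for patterning the posterior body and the neural plate. ERK activity turns on genes of its own inhibitors, among them Sprouty, Spred, Dusp6 and Il17rd genes, and ETS factor genes, so their RNA is often read as a trace of FGF activity.

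Levels are counts per 1000000 gene counts (CPM), scaled by the trimmed mean of M-values (TMM), and fold changes are MOV10 over control. The libraries held 11347400 and 11727654 gene counts in the MOV10 group and 11592035 to 13515787 in the controls, and 3 counts in a library equal 0.201 to 0.283 CPM. Changes were called at an adjusted p under 0.05 by edgeR's quasi-likelihood test over all 20049 tested genes. The target's own RNA, mov10.L, averaged 29.4 ± 4.84 CPM (SD, n = 2) in the MOV10 group and 5.19 ± 2.25 CPM (SD, n = 3) in the controls, which checks no knockdown, since this morpholino acts on translation. Of 55 tested early gastrula markers 37 fell and 0 rose, while 18 did not pass the test. That is 67.3% lower, beside 17.7% of all tested genes. The summed level of the list was 1547 and 2099 CPM in the MOV10 libraries, against 5028 to 6628 CPM in the controls. Without control replicate 3 a gastrula marker rose, giving 1 higher and 34 lower. The list's 4 smallest adjusted p belonged to gs17.L, ventx1.1.S, chrd.1.L and cer1.S. Of 33 tested markers of differentiated muscle 30 rose, led by mylpf.S, neb.L, tnnc2.S and tnnt3.S. That is 90.9% higher, beside 24.4% of all tested genes. The sum of the muscle list was 16734 and 19808 CPM in the MOV10 libraries, against 195 to 549 CPM in the controls. Of 44 muscle models 9 were at 0 in every control library. Copies such as neb.L, with 7, 4 and 8 counts in the controls, passed the filter through the MOV10 libraries alone. Such copies had to differ, so their calls are a description and their p is no support. Markers of other late tissues rose in 9 of 19 tested cases and fell in 0 (8 higher and 1 lower without MOV10 replicate 2), led by apoa1.L, ttr.L, dnai1.L and apoa1.S, with sums of 1970 and 1256 CPM in the MOV10 libraries, against 518 to 771 CPM in the controls. Those 9 copies are 47.4% of the late tissue copies tested, beside 24.4% of all tested genes higher and 42.1% called in either direction. Of the late tissue sums krt12.S alone made 1620 and 1019 CPM in the MOV10 libraries, against 452, 408 and 653 CPM in the controls. Its L copy did not pass (edgeR adjusted p = 0.864), so these sums mostly show 1 gene. In that list apoa1.L and apoa1.S had 0 counts in every control, and ttr.L had 3, 5 and 5. All of these copies passed the filter through the MOV10 libraries alone, so their p is no support. The marker lists were chosen with earlier results of these data known. The muscle and early gastrula sums of both MOV10 libraries went against their labelled stage. No FGF result can be given without such libraries, and the part of these shifts in the FGF results was not tested. In RNA from whole embryos, fewer cells of a type and less RNA per cell cannot be told apart.

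Members of the FGF pathway changed about as often as genes at large, and in both directions. The 29 tested members comprised 8 that rose, 4 that fell and 17 that did not pass. The share called was 41.4%, beside 42.1% of all tested genes, with 27.6% higher beside 24.4% and 13.8% lower beside 17.7%. The median log2 fold change was -0.05 among the tested members and 0.08 over all tested genes. The 2 groups did not overlap in 18 of the 29 members, beside 65.9% of all tested genes. In 12 members both MOV10 libraries lay above all controls, beside 35.5% of all tested genes, and in 6 below all controls, beside 30.4%. The genes that rose were fgf2.L, fgfr1.L, both copies of fgfr2, spry1.L, spred2.S and both copies of dusp6, and those that fell were both copies of spry2, spred2.L and etv1.S. With control replicate 3 left out 2 members fell. With control replicate 1 left out spry2.L and spred2.L left the calls, while fgf3.S, fgf8.L and fgf8.S joined the lower ones. A fit without MOV10 replicate 2 or 3 leaves 1 library in that group. The share of all genes called in these fits is not set beside the counts, here or below. So they do not show that members lose calls more often than other genes. In the filter, fgf2.L passed through the MOV10 libraries alone and fgfr3.S through the control libraries alone, so these 2 copies were tested only because 1 group was high. Among the 27 copies with at least 1 library of each group over the filter's cut 7 rose and 4 fell. The same count was not made over all genes, so it has no background. The filter needed 2 libraries over the cut, and 2 of the 27 had them in 1 group only. These were fgfrl1.L, with 1 control library over the cut, and fgf20.S, with 1 MOV10 library over it, and neither was called. The authors' deposited table gave 7 members as higher and 2 as lower at a false discovery rate under 0.05, beside 20.5% and 12.7% of its 19421 genes. Its test was not stated, so these counts are not like for like with those here. There fgfr1.L, spry2.L and spry2.S did not pass (the authors' false discovery rates 0.0610, 0.129 and 0.0646). The fit here against a 1.5-fold change (glmTreat) lost the same copies.

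**Figure D1:**
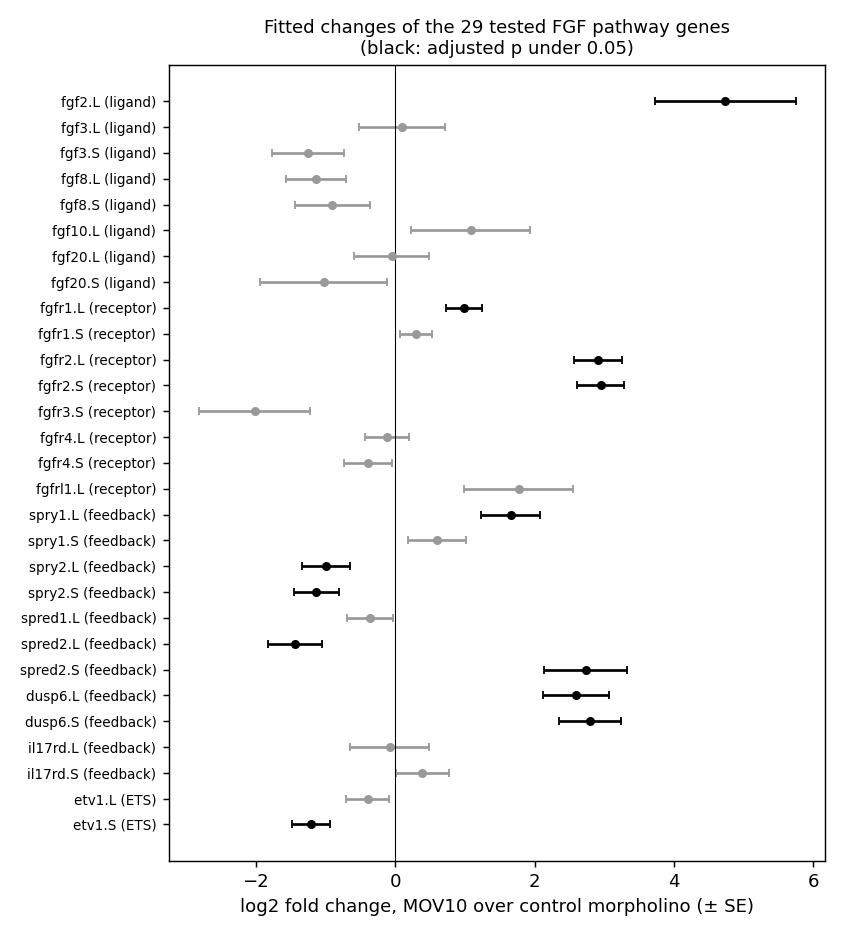
Fitted log2 fold change, MOV10 over control morpholino, of the 29 tested members on the x axis, with bars of 1 SE, members in rows by role, and members past an adjusted p of 0.05 in black. Both copies of fgfr2 and of dusp6 stood to the right, both copies of spry2 to the left, and the copies of spred2 on opposite sides. The fitted value of fgf2.L rests on 3 control counts and depends on the prior count.

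Few ligand copies had enough reads to be tested, the 1 that rose was admitted through the MOV10 libraries alone, and both copies of fgf8 varied widely among the controls. Of 40 ligand models 13 had no read, 8 were tested, and of these 1 rose, 0 fell and 7 did not pass. That is 12.5% called, beside 42.1% of all tested genes, and the median log2 fold change of the 8 was -0.48. Without control replicate 1, 3 ligand copies fell. With total gene counts as the scale 1 ligand copy rose and 2 fell.

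The gene fgf8 codes for a secreted ligand of the blastopore ring, the midbrain-hindbrain boundary and the tailbud. Its L copy (7L, 25376334 to 25386231, Xenla9.1) had 24.0 and 30.7 CPM in the MOV10 libraries, against 27.7, 83.3 and 69.7 CPM in control replicates 1, 2 and 3. Its S copy (7S, 20486683 to 20493976) had 20.9 and 16.6 CPM in the MOV10 libraries, against 12.2, 56.1 and 36.9 CPM in the controls. In both copies control replicate 1 lay near or below the MOV10 libraries while control replicates 2 and 3 lay above them, so the groups overlapped. The log2 fold changes were -1.14 ± 0.43 for fgf8.L (SE, edgeR adjusted p = 0.0641) and -0.90 ± 0.54 for fgf8.S (SE, edgeR adjusted p = 0.212), and neither passed the test. Without control replicate 1 both passed, at -1.48 (edgeR adjusted p = 0.00488) for fgf8.L and -1.31 (edgeR adjusted p = 0.0149) for fgf8.S. Over 13 alternatives the adjusted p ranged from 0.00144 to 0.209 for fgf8.L and from 0.00586 to 0.576 for fgf8.S.

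The same control library was the lowest control for fgf3.S, fgf10.L, fgf20.L and fgf20.S. For fgf3, a ligand known for its part in ear and hindbrain development, the S copy had 2.26 and 3.12 CPM in the MOV10 libraries, against 3.55, 8.48 and 7.27 CPM in the controls. All of its MOV10 values lay below all control values, by a log2 fold change of -1.25 ± 0.52 (SE, edgeR adjusted p = 0.0827) that did not pass, and without control replicate 1 it passed (-1.55, edgeR adjusted p = 0.0405, range over 13 alternatives 0.0405 to 0.238). The L copy, fgf3.L, had 2.54 and 1.42 CPM in the MOV10 libraries, against 1.54, 1.55 and 2.48 CPM in the controls, with overlap.

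Copies of fgf20, a ligand related to fgf9, also overlapped between the groups. The L copy, fgf20.L (1L, 34761878 to 34766347), had 3.76 and 6.05 CPM in the MOV10 libraries, against 2.88, 4.16 and 8.26 CPM in the controls. The S copy, fgf20.S (1S, 31194266 to 31200030), had 0.659 and 1.13 CPM in the MOV10 libraries, against 0.469, 3.42 and 1.65 CPM in the controls. Their log2 fold changes of -0.05 ± 0.54 and -1.03 ± 0.92 (SE) did not pass the test (edgeR adjusted p = 0.951 and 0.398), and the direction of fgf20.L turned at a minimum count of 30 and when MOV10 replicate 2 or control replicate 3 was left out. For fgf10.L, a ligand known from limb and lung mesenchyme, the values were 1.98 and 2.93 CPM in the MOV10 libraries, against 0.201, 1.39 and 1.90 CPM in the controls. The groups of fgf10.L did not overlap, and its log2 fold change of 1.09 ± 0.85 (SE, edgeR adjusted p = 0.337) did not pass.

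The ligand copy that rose was fgf2.L (1L, 59103978 to 59143270, minus strand), whose product, basic FGF, is known for inducing mesoderm in frog explants. It had 29 and 19 counts in the MOV10 libraries, against 2, 1 and 0 counts in the controls (edgeR adjusted p = 0.00627). A copy admitted by the filter through its high group alone had to differ, so the values of fgf2.L are a description and its p is no support. Summed over libraries and scaled to their sizes, the MOV10 to control ratio of counts was 29.7 (95% counting interval 9.56 to 149). Without control replicate 1 the ratio was 55.2 (9.44 to 2224), and without MOV10 replicate 2 the call ended (edgeR adjusted p = 0.0848, range over 12 alternatives 9.58e-04 to 0.325). Reads on the opposite strand of fgf2.L were more numerous, at 403 and 259 in the MOV10 libraries and 292, 308 and 361 in the controls, and no other gene model of the annotation overlaps it. In the column without strand the change was 0.38 ± 0.29 on the log2 scale (SE) and did not pass.

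Among the 32 ligand models that were not tested, reads of several came mostly or wholly from 1 group, often from 1 library. Counts of fgf4.S, a ligand of the blastopore mesoderm in Xenopus, were 0 and 0 in the MOV10 libraries and 0, 23 and 7 in the controls, at least 5.40-fold lower when 3 counts over the MOV10 group are taken as the floor. That bound was 2.69 without MOV10 replicate 2, 2.70 without MOV10 replicate 3, 8.70 without control replicate 1 and 1.83 without control replicate 2. For fgf10.S there were 1 and 24 counts in the MOV10 libraries and 0, 0 and 0 in the controls, so nearly all reads came from MOV10 replicate 3. With 3 counts over the controls as the floor, fgf10.S was at least 15.4-fold higher. The bound was 29.7 without MOV10 replicate 2 and 9.58 without control replicate 1, while 1 count remained without MOV10 replicate 3. Bounds of this kind, here and below, take the other group's count as exact. The 95% counting interval of fgf10.S began lower, at 11.7. A ligand of the fgf9 subfamily, fgf16.L, had 0 and 1 counts in the MOV10 libraries and 11, 7 and 5 in the controls, a control to MOV10 ratio of 12.4 (95% counting interval 2.02 to 511). That ratio was 6.19 (1.01 to 255) without MOV10 replicate 2, and fgf16.L was at least 2.07-fold lower without MOV10 replicate 3.

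The S copy of fgf2, fgf2.S, had 0 and 9 counts in the MOV10 libraries and 0, 0 and 0 in the controls, at least 5.56-fold higher by the floor over the controls. That bound was 11.1 without MOV10 replicate 2 and 3.45 without control replicate 1, and no read remained without MOV10 replicate 3, so the copy rests on 1 library. Likewise fgf5.S, with 7 and 0 counts in the MOV10 libraries, and fgf6.L, with 0 and 7, had no read in any control, at least 4.32-fold higher each, and without the 1 library that held them no read remained. Without the other MOV10 library the bound was 8.63 for fgf5.S and 8.67 for fgf6.L, and without control replicate 1 it was 2.68 for each. For fgf9.L there were 3 and 5 counts in the MOV10 libraries and 1, 0 and 0 in the controls, a MOV10 to control ratio of 14.8 (95% counting interval 1.99 to 658). The interval reached below 1 without MOV10 replicate 3 (0.891 to 582), and without control replicate 1 fgf9.L was at least 3.06-fold higher. These differences of a few reads in 2 and 3 libraries were not tested with the filter in place. With no filter fgf10.S was called higher (edgeR adjusted p = 0.0249), though nearly all of its reads came from MOV10 replicate 3. In that fit fgf2.S, fgf4.S, fgf5.S, fgf6.L, fgf9.L and fgf16.L did not pass.

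The other untested ligand models were as sparse. Counts of fgf7.L were 2 and 4 in the MOV10 libraries and 0, 0 and 6 in the controls, and those of fgf7.S were 0 and 5 in the MOV10 libraries and 0, 2 and 0 in the controls. Counts of fgf22.L, of the same ligand subfamily, were 4 and 0 in the MOV10 libraries and 5, 0 and 4 in the controls. Of fgf1.L, which codes for acidic FGF, 2 reads were seen in control replicate 3 alone. The 13 models without a read were fgf1.S, fgf4.L, fgf5.L, fgf6.S, fgf9.S, both copies of fgf13, fgf16.S, fgf19.S, fgf21.S, both copies of fgf23.1 and fgf23.2.L. The models of fgf11 to fgf14, whose products stay inside the cell and do not signal through FGF receptors in mammals, had at most 6 counts in any library. The endocrine ligand models of fgf19, fgf21 and fgf23 had at most 5. These levels are at or near the floor of detection.

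**Figure D2:**
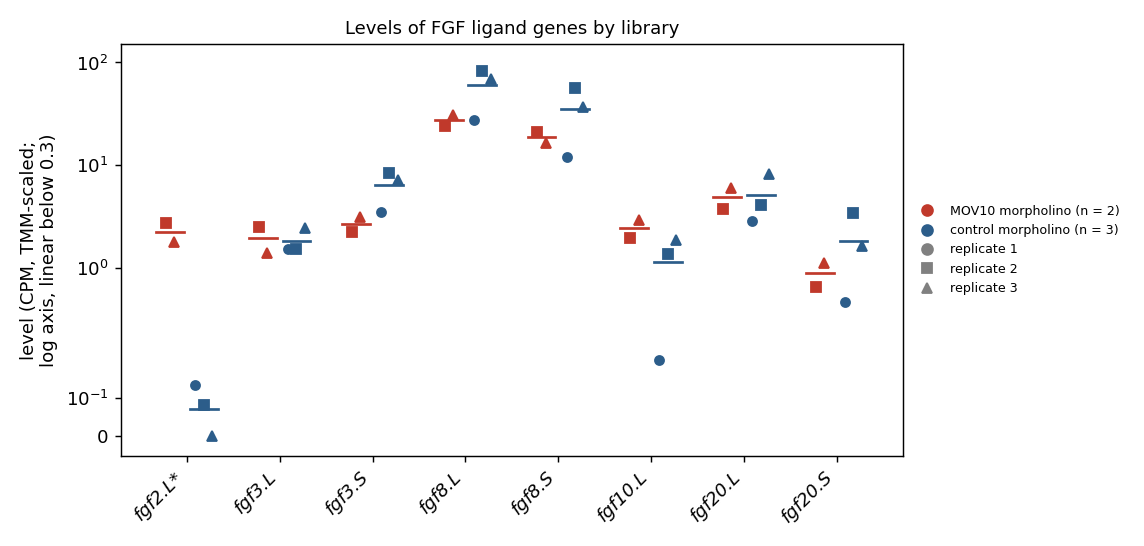
Level in CPM (TMM-scaled) of the 8 tested ligand copies by library, MOV10 in red and control in blue, on a log axis that is linear below 0.3, with bars at the group means, symbols for the replicate number, and an asterisk for an adjusted p under 0.05. Control replicate 1 (circles) lay at 27.7 CPM for fgf8.L and 12.2 CPM for fgf8.S, below the other controls.

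Among the 8 tested receptor copies those of fgfr2 had the largest changes, both higher, while fgfr4 did not pass the test. Of 10 receptor models 8 were tested, 3 rose, 0 fell and 5 did not pass. That is 37.5% higher, beside 24.4% of all tested genes, and the median log2 fold change of the 8 was 0.65. The summed receptor level was 2070 and 1912 CPM in the MOV10 libraries, against 1009, 535 and 693 CPM in the controls, with no overlap. Copies of fgfr2 held 75.8% and 62.1% of the receptor reads in the MOV10 libraries. Without these copies the receptor sums of the groups overlapped.

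The receptor gene fgfr2, known in vertebrates for epithelial and skeletal development, codes for a receptor tyrosine kinase. Its L copy, fgfr2.L (7L, 13900562 to 13944944, plus strand), had 828 and 507 CPM in the MOV10 libraries, against 122, 53.5 and 90.1 CPM in the controls. Its S copy, fgfr2.S (7S, 10490807 to 10574268, plus strand), had 742 and 680 CPM in the MOV10 libraries, against 114, 49.2 and 113 CPM in the controls. Every MOV10 value exceeded every control value by more than the spread within either group. The log2 fold changes were 2.91 ± 0.35 for fgfr2.L, or 7.53-fold (SE, edgeR adjusted p = 4.61e-04), and 2.95 ± 0.34 for fgfr2.S, or 7.72-fold (SE, edgeR adjusted p = 3.86e-04). Both calls held without each library in turn. A small unnamed model lies within fgfr2.L on the same strand, with 4 and 0 counts in the MOV10 libraries and 3, 2 and 10 in the controls. Reads on the opposite strand summed to 38 in the MOV10 libraries and 0 in the controls for fgfr2.L, and to 27 and 11 for fgfr2.S.

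The receptor gene fgfr1, the main FGF receptor of the early mesoderm, rose in its L copy. That copy, fgfr1.L (3L, 124253222 to 124293563), had 147 and 203 CPM in the MOV10 libraries, against 111, 85.9 and 66.5 CPM in the controls. Its log2 fold change was 0.99 ± 0.26 (SE, edgeR adjusted p = 0.0150), and the call ended without MOV10 replicate 3 (0.73, edgeR adjusted p = 0.105, range over 13 alternatives 0.00217 to 0.105). The S copy, fgfr1.S, had 83.9 and 92.4 CPM in the MOV10 libraries, against 89.8, 65.9 and 59.2 CPM in the controls, with overlap, and did not pass (log2 fold change 0.30 ± 0.24, SE, edgeR adjusted p = 0.338).

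Both copies of fgfr4, a receptor gene expressed in the neural plate of frogs, overlapped between the groups. Levels of fgfr4.L (3L, 39291464 to 39301615) were 162 and 264 CPM in the MOV10 libraries, against 312, 162 and 218 CPM in the controls. For fgfr4.S (3S, 98910946 to 98922018) they were 104 and 159 CPM in the MOV10 libraries, against 255, 116 and 144 CPM in the controls. The groups overlapped, and the log2 fold changes of -0.11 ± 0.31 for fgfr4.L and -0.39 ± 0.35 for fgfr4.S (SE, edgeR adjusted p = 0.795 and 0.400) did not pass. Without control replicate 1 both signs turned, to 0.17 and 0.01. Within a library, which needs no scaling between libraries, fgfr2 had 5.90 and 2.81 counts per count of fgfr4 in the MOV10 libraries, against 0.416, 0.369 and 0.563 in the controls, both copies summed. The share of all receptor reads that fell on fgfr2 was 75.8% and 62.1% in the MOV10 libraries, against 23.4%, 19.2% and 29.3% in the controls, and that on fgfr4 was 12.8% and 22.1%, against 56.2%, 52.0% and 52.1%. The share of fgfr4 is of a total that holds the higher fgfr2 reads, so the lower share alone does not show a fall of fgfr4. The levels of fgfr4 itself overlapped, which does not show that they were equal. The widest 95% Wilson interval of these shares, for counting error only, was 1.21 percentage points to either side. Reads also depend on transcript length, so the shares show a shift between groups and not which receptor had more RNA molecules. In the authors' annotation both fgfr4 copies carry the human symbol FGFR2, so a summary of their table by human symbol would join the genes that differ here.

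Reads of fgfr3 and fgfrl1 were few. The S copy, fgfr3.S, had 0.470 and 0.283 CPM in the MOV10 libraries, against 1.87, 1.30 and 1.49 CPM in the controls, all MOV10 values lower, and its log2 fold change of -2.02 ± 0.80 (SE, edgeR adjusted p = 0.0726) did not pass. The untested fgfr3.L had 2 and 1 counts in the MOV10 libraries and 17, 3 and 9 in the controls, a control to MOV10 ratio of 5.22 (95% counting interval 1.62 to 26.8). That ratio was 7.81 (1.29 to 319) without MOV10 replicate 2 and 3.48 (0.939 to 19.2) without control replicate 1. The decoy-like receptor gene fgfrl1, whose product lacks the kinase domain, had 1.79 and 3.31 CPM in the MOV10 libraries, against 1.21, 0.244 and 0.743 CPM in the controls, in its L copy (log2 fold change 1.77 ± 0.78, SE, edgeR adjusted p = 0.101, not passed). The untested fgfrl1.S had 9 and 37 counts in the MOV10 libraries and 4, 3 and 3 in the controls, a MOV10 to control ratio of 8.53 (95% counting interval 4.24 to 18.9). That ratio was 13.7 (6.70 to 31.0) without MOV10 replicate 2 and 3.33 (1.197 to 9.11) without MOV10 replicate 3. The fit with no filter tested fgfrl1.S and called it higher (edgeR adjusted p = 0.0298). The fit without MOV10 replicate 2 gave a log2 fold change of 3.72. That fit admitted the copy through MOV10 replicate 3 alone, its high library, so it is no support.

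**Figure D3:**
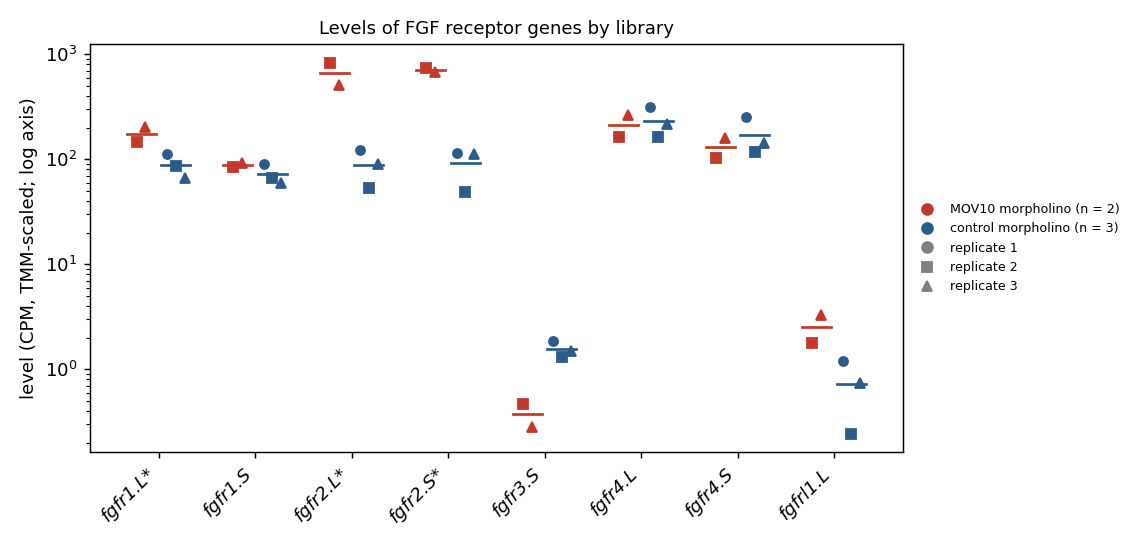
Level in CPM (TMM-scaled, log axis) of the 8 tested receptor copies by library, MOV10 in red and control in blue, with bars at the group means, symbols for the replicate number, and an asterisk for an adjusted p under 0.05. Both fgfr2 copies lay at 507 to 828 CPM in the MOV10 libraries and 49.2 to 122 CPM in the controls, while the fgfr4 copies overlapped.

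The feedback inhibitors divided, with dusp6 and spry1.L higher and spry2 lower. Of 18 feedback models 11 were tested, 4 rose, 3 fell and 4 did not pass. That is 36.4% higher and 27.3% lower, beside 24.4% and 17.7% of all tested genes, and the median log2 fold change of the 11 was 0.39. The feedback members lower were 0 without MOV10 replicate 2 and 1 each without MOV10 replicate 3, without control replicate 1 and without control replicate 3. The summed feedback level was 96.7 and 117 CPM in the MOV10 libraries, against 90.3, 71.1 and 93.6 CPM in the controls.

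The gene dusp6 codes for a phosphatase that removes the activating phosphates of ERK, and it rose in both copies. The L copy, dusp6.L (3L, 47498942 to 47504283), had 10.8 and 12.2 CPM in the MOV10 libraries, against 2.95, 1.14 and 1.57 CPM in the controls. The S copy, dusp6.S (3S, 90833617 to 90839594), had 23.4 and 20.2 CPM in the MOV10 libraries, against 4.62, 3.26 and 1.49 CPM in the controls. The lowest MOV10 value was more than 3 times the highest control value in each copy. The log2 fold changes were 2.59 ± 0.47 for dusp6.L, or 6.02-fold (SE, edgeR adjusted p = 0.00322), and 2.79 ± 0.45 for dusp6.S, or 6.93-fold (SE, edgeR adjusted p = 0.00174), and both held without each library in turn.

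Sprouty proteins are membrane-bound inhibitors of receptor tyrosine kinase signalling. The L copy of spry1 (1L, 58835743 to 58840855) had 9.97 and 11.4 CPM in the MOV10 libraries, against 2.61, 2.61 and 4.96 CPM in the controls. It rose by 1.66 ± 0.42 on the log2 scale, or 3.16-fold (SE, edgeR adjusted p = 0.0137), also without each library in turn. The S copy, spry1.S (1S, 54039235 to 54041704), had 5.27 and 5.67 CPM in the MOV10 libraries, against 3.62, 4.24 and 2.97 CPM in the controls. Its groups did not overlap either, yet its log2 fold change of 0.60 ± 0.42 (SE, edgeR adjusted p = 0.281) did not pass.

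The related spry2 fell in both copies. The L copy, spry2.L (2L, 124731924 to 124738471), had 6.96 and 8.88 CPM in the MOV10 libraries, against 14.1, 12.6 and 20.7 CPM in the controls. The S copy, spry2.S (2S, 107009263 to 107015901), had 7.90 and 11.4 CPM in the MOV10 libraries, against 19.8, 17.8 and 26.1 CPM in the controls. All MOV10 values lay below all control values in both copies. The log2 fold changes were -0.995 ± 0.35 for spry2.L, 1.99-fold lower (SE, edgeR adjusted p = 0.0464), and -1.13 ± 0.32 for spry2.S, 2.19-fold lower (SE, edgeR adjusted p = 0.0212). The call of spry2.L lay at the threshold and ended without MOV10 replicate 2 (edgeR adjusted p = 0.181), MOV10 replicate 3 (0.0743), control replicate 1 (0.0680) or control replicate 3 (0.140), and the adjusted p spanned 0.0243 to 0.181 over 13 alternatives. The call of spry2.S was lost when MOV10 replicate 2 (edgeR adjusted p = 0.115) or control replicate 3 (0.0689) was left out, with 0.00674 to 0.115 as the range. Of the other Sprouty genes, spry4.L had 8 and 10 counts in the MOV10 libraries and 1, 7 and 7 in the controls, spry4.S had 11 and 8 counts in the MOV10 libraries and 0, 9 and 2 in the controls, and spry3 had no read.

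Spred proteins are Sprouty relatives that hold back the activation of Raf, and the copies of spred2 moved in opposite directions. The L copy, spred2.L (5L, 29797017 to 29878795), had 3.105 and 3.118 CPM in the MOV10 libraries, against 9.57, 8.07 and 7.68 CPM in the controls. It fell by 1.44 ± 0.38 on the log2 scale, 2.71-fold lower (SE, edgeR adjusted p = 0.0165). The S copy, spred2.S (5S, 2006719 to 2058073), had 3.76 and 13.9 CPM in the MOV10 libraries, against 1.41, 1.39 and 1.16 CPM in the controls. The MOV10 libraries differed widely from each other, and both lay above every control. It rose by 2.73 ± 0.59 on the log2 scale, or 6.65-fold (SE, edgeR adjusted p = 0.00679). Without MOV10 replicate 3 the rise of spred2.S was 1.496 and no longer passed (edgeR adjusted p = 0.139), and without MOV10 replicate 2 it was 3.38, in a range of adjusted p of 2.80e-04 to 0.139 over 13 alternatives. The fall of spred2.L ended narrowly without MOV10 replicate 2 (edgeR adjusted p = 0.0533), MOV10 replicate 3 (0.0525) or control replicate 1 (0.0545), and the adjusted p spanned 0.00352 to 0.0545.

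The remaining feedback members did not pass. Levels of spred1.L were 8.09 and 12.5 CPM in the MOV10 libraries, against 15.1, 11.1 and 13.3 CPM in the controls, while spred1.S had 3 and 11 counts in the MOV10 libraries and 0 in every control. With the same floor spred1.S was at least 8.65-fold higher, or 13.6-fold without MOV10 replicate 2 and 5.36-fold without control replicate 1, and 3 counts remained without MOV10 replicate 3. The membrane inhibitor gene il17rd, also called Sef, had 12.0 and 12.1 CPM in the MOV10 libraries, against 11.9, 5.62 and 10.1 CPM in the controls, in its S copy (log2 fold change 0.39 ± 0.38, SE, edgeR adjusted p = 0.435). Its L copy, il17rd.L, had 3.29 and 2.46 CPM in the MOV10 libraries, against 4.55, 1.79 and 2.73 CPM in the controls, with overlap. Counts of spred3 were at most 3 in any library. An unnamed model within spred1.L on its strand had 4 and 5 counts in the MOV10 libraries and none in the controls.

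**Figure D4:**
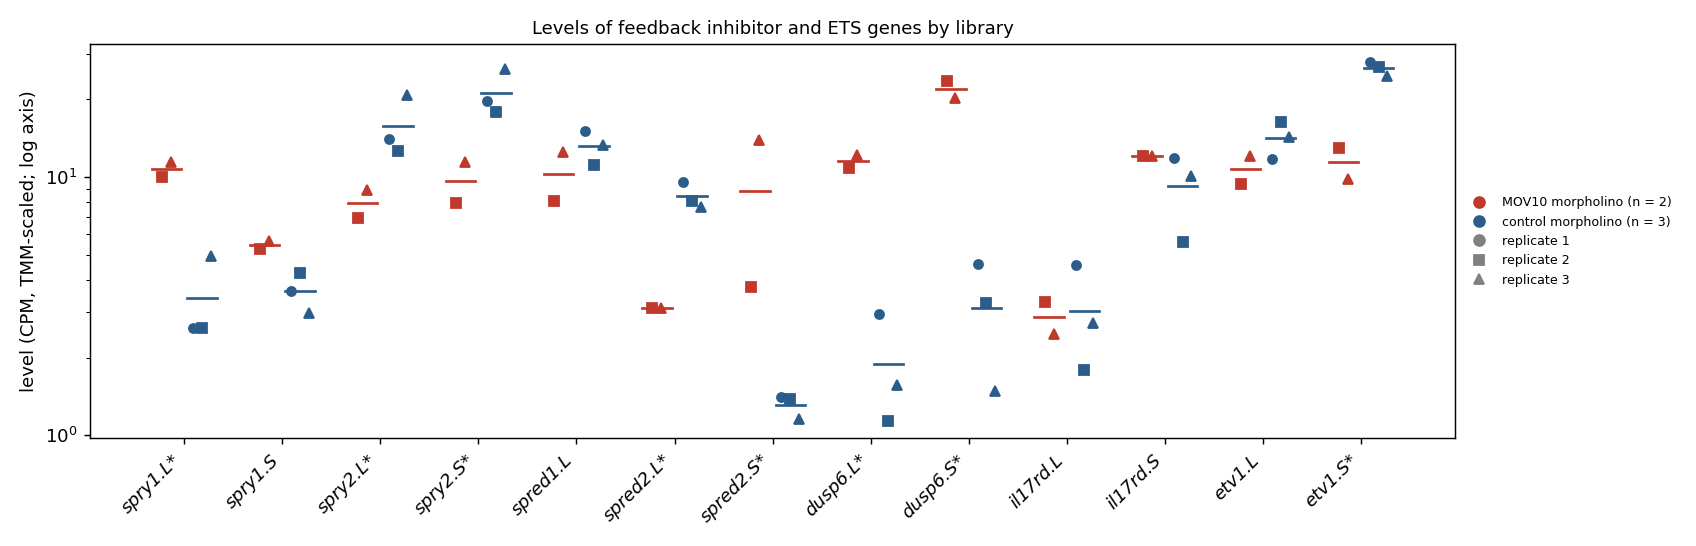
Level in CPM (TMM-scaled, log axis) of the 11 tested feedback inhibitor copies and 2 tested ETS copies by library, MOV10 in red and control in blue, with bars at the group means, symbols for the replicate number, and an asterisk for an adjusted p under 0.05. Both dusp6 copies and spry1.L lay higher and both spry2 copies lower in the MOV10 libraries, and the MOV10 libraries of spred2.S stood at 3.76 and 13.9 CPM.

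ETS factors of this group are transcription factors that carry the ERK signal to its target genes. The S copy of etv1 (6S, 28363130 to 28409378) had 12.98 and 9.83 CPM in the MOV10 libraries, against 27.8, 26.7 and 24.6 CPM in the controls. It fell by 1.21 ± 0.27 on the log2 scale, 2.31-fold lower (SE, edgeR adjusted p = 0.00778), and the call ended at the threshold without MOV10 replicate 3 (edgeR adjusted p = 0.0515, range over 13 alternatives 3.11e-04 to 0.0515). The L copy, etv1.L, had 9.41 and 12.0 CPM in the MOV10 libraries, against 11.7, 16.3 and 14.3 CPM in the controls, and its log2 fold change of -0.40 ± 0.31 (SE, edgeR adjusted p = 0.333) did not pass. The 1 copy of etv4 named in the annotation, etv4.S, had 10 and 3 counts in the MOV10 libraries and 0 in every control, at least 8.03-fold higher with the same floor. That bound was 12.3 without MOV10 replicate 3 and 4.98 without control replicate 1, and 3 counts remained without MOV10 replicate 2.

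Homeologs of a gene were set against each other by the ratio of L to S counts within each library, tested with limma over 4843 pairs in which both copies had a mean of at least 10 counts. Such a ratio shows unequal change of the copies and needs no scaling between libraries. Among all pairs 24.4% passed an adjusted p of 0.05, and of the 13 member pairs tested 2 passed, spred2 and fgfr1. Without MOV10 replicate 3, control replicate 1 or control replicate 3, 1 member pair passed. The log2 ratio of spred2 was -0.27 and -2.14 in the MOV10 libraries, against 2.74, 2.51 and 2.69 in the controls, with no overlap. The difference was -3.85 ± 0.70 (SE, limma adjusted p = 0.00591), -4.78 without MOV10 replicate 2 and -2.92 without MOV10 replicate 3, and it passed in all 10 alternatives.

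The log2 ratio of fgfr1 was 0.81 and 1.13 in the MOV10 libraries, against 0.31, 0.38 and 0.17 in the controls, with no overlap. The difference of 0.69 ± 0.18 (SE, limma adjusted p = 0.0245) no longer passed without MOV10 replicate 3 (limma adjusted p = 0.128), control replicate 1 (0.0640) or control replicate 3 (0.0732), and it spanned 0.0208 to 0.128 over 10 alternatives. For the other pairs whose copies both changed, the difference was small against its error. It was -0.10 for fgfr2 (95% interval -0.58 to 0.39), -0.24 for dusp6 (-1.65 to 1.18) and 0.17 for spry2 (-0.58 to 0.91), intervals that do not show equal change. Among 12 member pairs with both copies tested, 3 had both copies past the threshold in 1 direction, beside 20.7% of 5124 such pairs, and 3 pairs had fitted changes of opposite sign, beside 30.5%.

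**Figure D5:**
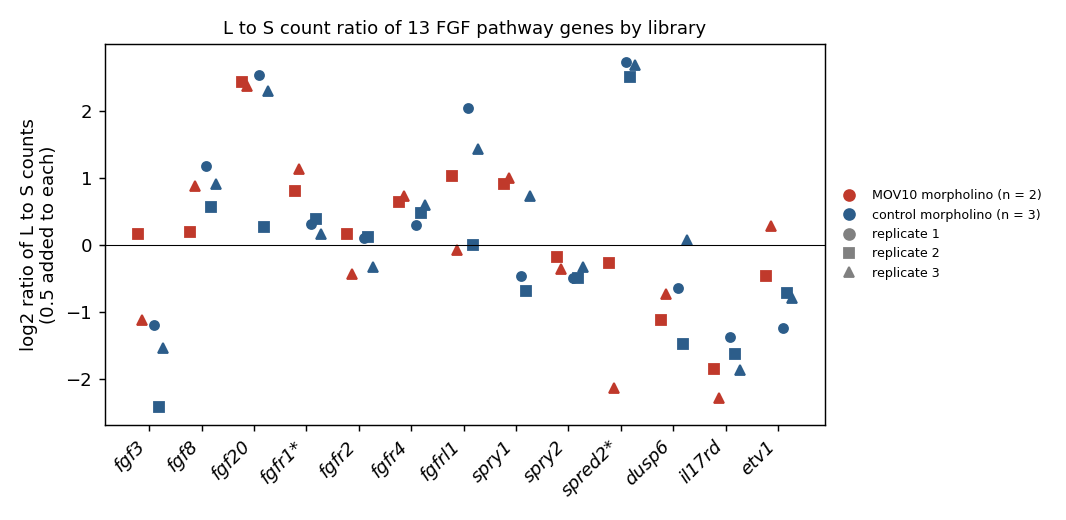
Log2 ratio of L to S counts, with 0.5 added to each, of the 13 tested member pairs by library, MOV10 in red and control in blue, with symbols for the replicate number and an asterisk for a limma adjusted p under 0.05. The spred2 ratio lay at 2.51 to 2.74 in the controls and below 0 in both MOV10 libraries.

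Other genes of the pathway were counted from lists that the choice of members did not use, though these lists too were chosen with earlier results known. The list of 47 tested transduction genes, called adaptors and kinases for short, also holds Ras genes and inhibitors such as nf1, rasa1 and cbl. Of these 47 genes 6 rose, nf1.L among them (edgeR adjusted p = 0.0308), 3 fell and 38 did not pass. So 19.1% were called beside 42.1% of all tested genes, with a median log2 fold change of 0.32. With total gene counts as the scale 5 rose and 4 fell, and 3 rose without control replicate 3. The Raf kinase gene braf.L fell 5.18-fold, to 13.4 ± 3.69 CPM (SD, n = 2) in the MOV10 group, against 69.4 ± 4.44 CPM (SD, n = 3) in the controls (edgeR adjusted p = 3.55e-04). Another Raf gene, araf.L, rose 4.08-fold (edgeR adjusted p = 0.00376). The phospholipase gene plcg1.S, whose product binds activated FGF receptors, rose 6.27-fold, to 163 ± 34.3 CPM (SD, n = 2) in the MOV10 group, against 25.9 ± 10.4 CPM (SD, n = 3) in the controls (edgeR adjusted p = 5.20e-04). The adaptor gene grb2.L, which links receptors to Ras activation, fell 4.98-fold (edgeR adjusted p = 6.76e-04). These are changes of single copies. The S copies braf.S, araf.S and grb2.S did not pass (edgeR adjusted p = 0.309, 0.105 and 0.359), while plcg1.L rose too (edgeR adjusted p = 0.0119).

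Cell surface modulators of FGF binding were called in both directions, with 36 tested, of which 2 rose, 6 fell and 28 did not pass. That is 22.2% called, beside 42.1% of all tested genes, with a median log2 fold change of -0.25. With total gene counts as the scale 1 rose and 9 fell, without MOV10 replicate 2 there were 3 lower, and without MOV10 replicate 3, control replicate 1 or control replicate 3 there was 1 higher. The heparan sulfate sulfatase gene sulf2.L rose 11.8-fold (edgeR adjusted p = 0.00142). The FLRT family gene flrt1.S had 5 and 2 counts in the MOV10 libraries, against 93, 43 and 109 in the controls. Its fall was 18.4-fold (edgeR adjusted p = 0.00251). As flrt1.S passed the filter through the control libraries alone, its values are a description and that p is no support. Heparan sulfate proteoglycan genes sdc2.L and gpc4.S fell 2.21-fold and 3.05-fold (edgeR adjusted p = 0.0109 and 0.0130). Their homeologs sdc2.S and gpc4.L, and sulf2.S, did not pass (edgeR adjusted p = 0.391, 0.0742 and 0.0688).

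Of 53 tested genes listed as responsive to FGF or ERK, not all of them specific to it, 15 rose, 11 fell and 27 did not pass. That is 28.3% higher and 20.8% lower, beside 24.4% and 17.7% of all tested genes, or 49.1% called beside 42.1%, with a median log2 fold change of 0.15 beside 0.08, so the list's shares lie near those of all genes. The early gastrula marker list also holds 4 of them, both copies of t and wnt8a. The T-box gene tbx6r.L rose 33.3-fold, to 1253 ± 292 CPM (SD, n = 2) in the MOV10 group, against 37.7 ± 14.1 CPM (SD, n = 3) in the controls (edgeR adjusted p = 3.47e-05). The immediate early gene fos rose in both copies, with 38.3 and 38.7 CPM of fos.S in the MOV10 libraries, against 2.01, 1.63 and 1.16 CPM in the controls (edgeR adjusted p = 4.75e-05). Counts of fos.L were 345 and 334 in the MOV10 libraries, against 12, 2 and 2 in the controls (edgeR adjusted p = 1.21e-04). Only control replicate 1 of the controls reached the filter's cut for fos.L. The copy was thus admitted by its high MOV10 libraries, and its p is no support. The gene bambi.S, whose product is a pseudoreceptor that dampens BMP signalling, fell 4.19-fold, to 86.9 ± 0.594 CPM (SD, n = 2) in the MOV10 group, against 364 ± 42.1 CPM (SD, n = 3) in the controls (edgeR adjusted p = 1.76e-04).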

How the data were processed

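Whole embryos were profiled by stranded mRNA sequencing, and the authors deposited 1 table of read counts per gene for each of 5 libraries. Per the submitters' processing notes the tools were STAR 2.5.2a, edgeR 3.15.2, FastQC 0.11.4 and bcl2fastq 2.17.1.14, and per the file headers the gene models are Xenbase 1.8.3.2 on Xenla9.1. The deposited counts are raw reads without strand, on the gene's strand and on its reverse, and the reverse strand column, which holds most gene reads, was used. A library had 120128621 to 156177877 reads, of which 7.51% to 10.4% counted to a gene, while 29.8% to 40.4% were unmapped, 2.02% to 5.53% mapped to several places and 48.6% to 57.1% fell on no gene. These summary lines stayed out of library sizes and tests. Reads that map to several places are not in the counts, so homeologs and paralogs are uncertain where they are alike. In the table of the authors' comparison the log2 fold changes and log2 CPM per library, the p-values and false discovery rates (FDR), and a signed fold change, a score not used here, are as the authors made them, and the test was not stated. The largest difference between its log2 fold changes and those here was 0.00415 over 19421 genes.

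The counts were fitted with edgeR 4.0.16 in R 4.3.3 (filterByExpr with a minimum count of 10, TMM scaling, glmQLFit and glmQLFTest, group as the only term, two-sided, Benjamini-Hochberg adjustment over 20049 genes, threshold 0.05). The SE of each edgeR log2 fold change was taken as its absolute value over the square root of the test's F statistic. Homeolog ratios, log2 of L over S counts with 0.5 added to each, were fitted with limma 3.58.1 (eBayes with trend) over pairs with a mean of at least 10 counts per copy. The fits were run on simulated data in which few genes were changed, as many up as down, at a fixed dispersion. Those data lack the many and uneven changes seen here, so that run does not check the scaling. Alternatives were other scaling (DESeq2 size factors, total gene counts), no filter or a minimum of 30, the column without strand, DESeq2 1.42.0, glmTreat against a 1.5-fold change, the replicate number as a block, and leaving out each library; for the ratios, pseudocounts of 1 and 5 and a mean of 30. Replicates are separate samples by their labels, and p-values measure only the spread between them. Intervals and floors of 3 counts cover counting error only, since reads without molecular identifiers are not independent molecules.

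Members and lists were chosen with earlier results of these data known. Every member was counted. Named genes are the copies of mov10, members past the threshold, other members by value, count or range, and from each other list up to 4 genes, those of smallest adjusted p under the threshold. Beyond these, the copies of krt12 and genes such as nf1 are named where they bear on a list's sum or make-up. No sequence is printed, since no genome of this build was used.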

Additional observations from a re-analysis of the deposited data

Results flagged for a closer look

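Among the 71 members 3 receptor copies were picked by their reads on the opposite strand, which no comparison above uses. The rule asked for more such reads relative to library size in both MOV10 libraries than in every control. It also asked for at least 10 such reads in the MOV10 libraries together. The lack of overlap is thus the rule and not a result. How many of all genes meet this rule was not counted. On fgfr2.L there were 38 such reads in the MOV10 libraries together and 0 in the controls, beside 14162 and 3570 reads in sense. On fgfr2.S there were 27 in the MOV10 libraries and 11 in the controls, beside 15080 and 3672 in sense. On fgfr4.S there were 58 in the MOV10 libraries and 14 in the controls, beside 2780 and 6971 in sense. Relative to sense reads, those of fgfr2.S were fewer in the MOV10 libraries, and those of fgfr2.L and fgfr4.S were more. Of all stranded gene reads, 11.7% and 10.7% were antisense in the MOV10 libraries, against 6.15%, 6.92% and 7.89% in the controls, and the part of this difference in the 3 results was not tested.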

How the results depend on the processing

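Among refits of single members' fold changes 324 kept their direction and side of the threshold, 21 lost it, 10 gained it and 16 reversed, while among those of homeolog ratios 120 kept it, 3 lost it and 3 reversed. The calls of fgfr2.L, fgfr2.S, dusp6.L, dusp6.S and spry1.L held in all 13 alternatives. Scaling by total gene counts shifted the median log2 fold change of all genes by -0.195 (-0.12, against 0.08 with TMM) and gave 4358 genes higher and 4357 lower, against 4899 and 3544, with 2 ligand copies lower and 1 surface modulator higher. No filter gave 2 ligand copies higher (fgf2.L and fgf10.S) and 1 lower (fgf8.L), and fgfrl1.S higher, a minimum of 30 and the column without strand gave 0 higher, and DESeq2 gave 1 lower. Against a 1.5-fold change (glmTreat) 2 members, 1 of them a feedback gene, fell and 1 surface modulator rose. The deviations of same-numbered libraries correlated at 0.0712 and 0.0200 over 2 pairs. This is a weak check, since the deviations of 2 MOV10 libraries mirror each other. Control replicate 1 stands alone in its block, and the replicate block lost and gained the same members as leaving that library out. These alternatives are thus not separate evidence. With the replicate block 8 members were higher and 5 lower, among them 3 ligand copies and 1 feedback copy, spry2.L and spred2.L left the calls while fgf3.S, fgf8.L and fgf8.S joined them, 1 surface modulator and 1 gastrula marker rose, and 4118 genes were higher and 3098 lower. Leaving out 1 library at a time gave 1 to 5 members lower, 0 to 3 ligands lower, 0 to 3 feedback members lower, 0 to 1 ETS copies lower, 3 to 6 kinases and adaptors higher, 1 to 3 surface modulators higher and 3 to 7 lower, 0 to 1 gastrula markers higher, 0 to 1 other late markers lower, 620 to 898 homeolog pairs past the threshold, against 1184, and 1 to 2 member pairs. Members whose sign turned were all short of the threshold. Values of fgf3.L were -0.10 with total counts, -0.040 with the replicate block and -0.39 to 0.44 with a library left out. Those of fgf20.L were 0.012 at a minimum of 30 and -0.44 to 0.48 with a library left out. Those of fgfr4.L were 0.14 with the replicate block and -0.52 to 0.19 with a library left out, and of fgfr4.S -0.74 to 0.014. Those of il17rd.L were 0.031 without strand, 0.36 with the replicate block and -0.34 to 0.35 with a library left out. With a library left out, the L minus S difference was -0.39 to 0.19 for fgfr2, -0.015 to 1.11 for fgf20 and -0.64 to 0.14 for dusp6. The cause of these changes was not tested. A library's floor of 3 counts (0.201 to 0.283 CPM) limits what can be said of the untested ligands.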
